A study of Mus musculus with 6 samples.

Results

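The genes described here are 10 that encode myokines and muscle growth factors, the signalling proteins that skeletal muscle secretes: Mstn, Fst, Fstl1, Fndc5, Fgf21, Il15, Igf1, Metrnl, Ostn and Vegfa. They were taken by symbol from a deposited table of 24532 genes, in which all 10 were present once. RNA came from gastrocnemius, the large calf muscle, of 12-week-old C57BL/6 mice. The 3 control mice carried floxed Usp21 alleles without Cre (USP21 flox/flox, with the genotype entered as Litter), and the 3 knockout mice carried the same floxed alleles with Ckmm-Cre (Muscle-specific USP21 KO). Usp21 encodes a protease that removes ubiquitin from proteins. In Ckmm-Cre the muscle creatine kinase promoter drives the recombinase, so other cells in the whole muscle keep an intact Usp21; which exons were deleted is not stated in the labels. The single comparison was knockout against control, which addresses how loss of Usp21 in muscle fibres changes the muscle's transcripts.

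Muscle fibres and the cells between them release proteins that act on the muscle itself or on distant organs. Myostatin, the product of Mstn, is a TGF-beta family ligand that limits muscle size through activin type II receptors, and follistatin, from Fst, binds and neutralises it. IGF-1 acts in the opposite direction through the IGF-1 receptor, and the other members reach blood vessels, fat, bone and liver as well as muscle.

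Libraries held between 48658436 and 67332846 counts, and 14109 genes had enough counts to be tested. Usp21 stood at 19.3, 19.3 and 19.2 CPM (counts scaled to library size) in controls 1 to 3 and at 9.08, 7.19 and 7.47 CPM in knockouts 1 to 3, which checks the labels. Muscle fibre markers (Ckm, Acta1, Myh4 and 5 more) summed to between 143391 and 197195 CPM per library, so the tissue carried its defining transcripts. Control 3 stood apart in slow-fibre genes, of which 7 summed to 133 CPM, against 1297 and 1252 CPM in controls 1 and 2 and 943, 656 and 1582 CPM in knockouts 1 to 3.

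Promoter sequences are shown for the members whose groups did not overlap, Igf1 and Fstl1, and for Mstn, the negative regulator of muscle size, whose groups overlapped, to set their start regions side by side. They are from RefSeq on GRCm38.p6, run from 250 bases before to 50 after an annotated start, and were found for 7 of the 10 members. The Igf1 window lies on the plus strand at chr10:87860861-87861160, that of Fstl1 on the plus strand at chr16:37776805-37777104 and that of Mstn on the plus strand at chr1:53061390-53061689. The Fstl1 and Mstn windows span the gene starts, 37777055 and 53061640. The Igf1 window lies inside the gene, which begins at 87858265, so it describes an internal start and not the gene's first one. Capitals mark matches, on either strand, to an E-box (CANNTG, the element bound by myogenic basic helix-loop-helix factors), a forkhead-type motif (GTAAACA), a hypoxia-type core (ACGTG) or a cAMP half-site (TGACG).
Igf1: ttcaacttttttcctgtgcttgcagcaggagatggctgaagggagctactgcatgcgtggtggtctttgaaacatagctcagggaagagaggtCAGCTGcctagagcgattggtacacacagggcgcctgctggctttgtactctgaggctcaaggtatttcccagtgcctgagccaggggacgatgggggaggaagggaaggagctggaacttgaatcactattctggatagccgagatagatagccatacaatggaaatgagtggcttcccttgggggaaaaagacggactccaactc
Fstl1: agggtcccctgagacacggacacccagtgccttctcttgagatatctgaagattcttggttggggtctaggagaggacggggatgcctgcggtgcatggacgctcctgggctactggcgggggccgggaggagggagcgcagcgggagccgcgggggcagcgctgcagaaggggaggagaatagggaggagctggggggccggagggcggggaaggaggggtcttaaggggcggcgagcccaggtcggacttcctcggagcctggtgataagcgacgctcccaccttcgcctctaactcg
Mstn: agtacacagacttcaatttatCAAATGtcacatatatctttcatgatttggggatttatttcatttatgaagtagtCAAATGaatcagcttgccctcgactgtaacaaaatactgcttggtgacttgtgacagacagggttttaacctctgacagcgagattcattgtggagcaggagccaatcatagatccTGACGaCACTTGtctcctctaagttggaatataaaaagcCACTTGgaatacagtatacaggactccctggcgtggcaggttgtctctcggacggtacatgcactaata
The Mstn window held 4 E-boxes and 1 cAMP half-site, the Igf1 window held 1 E-box, and the Fstl1 window held none of the motifs. Over 32817 promoter windows of 300 bases, 72.3% held an E-box, 20.8% the cAMP half-site, 19.6% the hypoxia-type core and 3.65% the forkhead-type motif. An E-box can overlap the hypoxia-type core, which none of the 3 windows shown held. Base composition also differed, with 41.3% G and C in the Mstn window, 52.3% in Igf1 and 66.7% in Fstl1, against a median of 52.7%.

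Of the 10 members 9 were tested, and each of these had at least 134 counts in every library. By edgeR's quasi-likelihood test none passed an adjusted p of 0.05, as against 0.0567% of all genes tested (8 genes). Log2 fold changes, given throughout as knockout minus control, were positive for 7 members and negative for 2, with a median of 0.37, where the median of all genes tested was -0.0037. At an unadjusted p under 0.05 there were 2 members, Igf1 and Fstl1, against 11.6% of all genes. The same 2 were the members in which every knockout library lay above every control library, which held for 8.38% of all genes (17.3% with either group on top). On the same counts, DESeq2's Wald test called these 2 members, but it called 290 of the 14109 genes in all, against edgeR's 8. Limma-voom called 0 members and 5 genes in all. For every gene list below, the background is likewise 11.6% of all genes at an unadjusted p under 0.05. For groups that do not overlap it is 17.3%. These are bulk samples, so a change in the number of cells that make a transcript cannot be told apart from a change in transcript per cell.

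**Figure D1:**
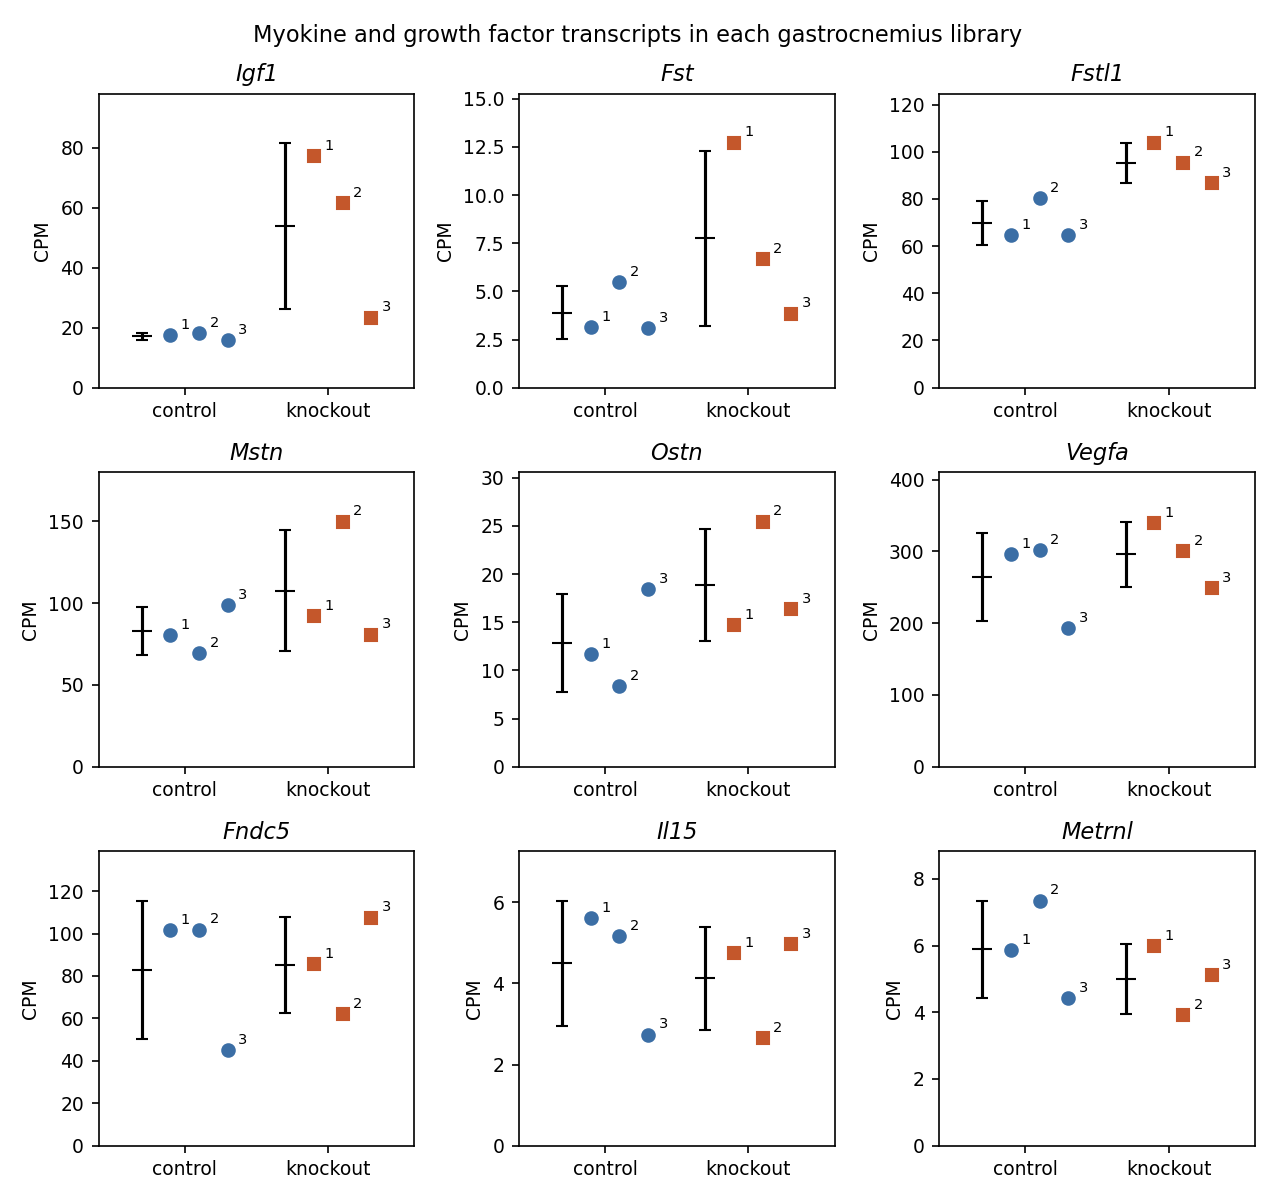
Level of each tested member in CPM (y axis, from 0) in the 3 control (circles) and 3 knockout (squares) libraries, numbered by replicate, with the mean and SD of each group as a black bar. Igf1 and Fstl1 are the panels in which all knockout points lie above all control points, and Fndc5 and Il15 are lowest in control 3 or knockout 2.

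Igf1, the growth factor that drives protein synthesis in fibres and proliferation of their precursor cells, had the largest difference of the 9. It stood at 17.4, 18.3 and 15.9 CPM in controls 1 to 3 and at 77.3, 61.6 and 23.4 CPM in knockouts 1 to 3. The controls lay within a 1.15-fold range, whereas the knockouts spanned a 3.30-fold range, with knockout 3 close to the controls. The control mean was 17.2 ± 1.19 CPM and the knockout mean 54.1 ± 27.7 CPM (SD, n = 3 each). As a log2 fold change this was 1.65 (SE 0.38; 95% interval 0.76 to 2.54; edgeR adjusted p = 0.265), and a two-sided exact permutation test of the log2 CPM values gave p = 0.1, which is as low as groups of 3 can reach. Without knockout 3 it was 2.01 with an edgeR adjusted p of 0.00652, and over all alternatives the adjusted p ran from 0.00652 to 0.763. Knockout 3 was the knockout nearest the controls, so leaving it out widens the difference by choice and is no independent support. That fit called 141 genes in all, against 8 with every library. The same limit holds wherever an adjusted p without knockout 3 is given below. Igf1 (Entrez 16000; mm10, chromosome 10, 87858265 to 87937047) is overlapped by an antisense gene, Igf1os. The counting is not stated to use strand, so reads of the pair may not be separated.

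The transcripts most like Igf1 over the 6 libraries, by Pearson's r of log2 CPM among 14108 other genes, were Ctla2a (0.996), Lifr (0.995) and Il2rg (0.995). Lifr encodes the receptor subunit for leukaemia inhibitory factor, and Il2rg encodes the gamma chain shared by receptors for interleukin-2 and interleukin-15. These r values describe 6 points chosen from many genes and carry no test. Ppargc1a, which encodes the coactivator PGC-1alpha, had the same order of knockouts, with 422 CPM in knockout 1, 293 CPM in knockout 2 and 87.7 CPM in knockout 3, where controls spanned 34.0 to 57.1 CPM (log2 fold change 2.44, SE 0.52, edgeR adjusted p = 0.241). Without knockout 3, again the knockout nearest the controls, its adjusted p was 0.0149, and over the alternatives it ran from 0.0130 to 0.763. The adjusted p values of Ctla2a, Lifr and Il2rg without knockout 3 were 0.0183, 0.0397 and 0.0535; these genes were picked for a pattern in which knockout 3 is low, so this is no independent support.

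The receptor of IGF-1 lay on the other side. Igf1r stood at 23.2, 25.0 and 20.6 CPM in the controls and at 19.5, 18.1 and 19.8 CPM in the knockouts. Every knockout was below every control, but the gap was small (log2 fold change -0.26, SE 0.098, edgeR adjusted p = 0.384). Igf2, a second ligand, was at 12.7 ± 3.98 and 15.7 ± 4.09 CPM (SD, n = 3 each), a difference within its spread. Igfbp5, an IGF-binding protein abundant in muscle, was at 692 ± 189 and 707 ± 161 CPM. Of 24 tested genes of the IGF list, members included, 0 passed the edgeR threshold, 17 were positive and 7 negative, and the median log2 fold change was 0.082. The non-members with the smallest p were Pappa and Irs2. Pappa, a protease that cleaves IGF-binding proteins, averaged 0.870 CPM over controls and 2.05 CPM over knockouts (log2 fold change 1.23, SE 0.33, edgeR adjusted p = 0.314). Irs2, a docking protein of the insulin and IGF-1 receptors, was at 20.5 and 41.1 CPM (1.00, SE 0.32, edgeR adjusted p = 0.363).

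Mstn had overlapping groups. Its levels were 80.4, 69.4 and 98.9 CPM in controls 1 to 3 and 92.2, 150 and 80.6 CPM in knockouts 1 to 3. Only knockout 2 lay above all controls. Its difference on the log2 scale was 0.37 (SE 0.24, edgeR adjusted p = 0.598); the 95% interval ran from a 0.879-fold to a 1.91-fold level. Without knockout 2 the log2 fold change was 0.059. Mstn (Entrez 17700) lies on chromosome 1, 53061640 to 53068079, and no other annotated gene overlaps it.

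Fst was one of the least abundant members. It stood at 3.13, 5.46 and 3.10 CPM in controls 1 to 3 and at 12.7, 6.68 and 3.85 CPM in knockouts 1 to 3. Knockout 1 was the high library, and knockout 3 lay inside the control range. On the log2 scale the difference was 0.99 (SE 0.43; 95% interval -0.021 to 2.01; edgeR adjusted p = 0.435) and was 0.43 without knockout 1. Fst (Entrez 14313) lies on chromosome 13, 114452262 to 114458989, and is overlapped by the antisense gene Gm47040.

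Among the other genes of the myostatin and activin pathway, Acvr2b had the largest difference relative to its error. Acvr2b encodes an activin type II receptor that binds myostatin. It stood at 29.7, 48.8 and 33.5 CPM in controls 1 to 3 and at 20.1, 15.6 and 18.0 CPM in knockouts 1 to 3, so that every knockout lay below every control. This was a log2 fold change of -1.06 (SE 0.19; 95% interval -1.51 to -0.61), with an edgeR adjusted p of 0.194; over the alternatives the adjusted p ran from 5.13e-05 (DESeq2's Wald test) to 0.615. Gdf11, the closest relative of myostatin, was at 14.8 ± 5.11 and 14.4 ± 3.56 CPM (SD, n = 3 each). Fstl3, another binding protein of activins and myostatin, was at 2.24 ± 0.605 and 2.53 ± 0.351 CPM. Wfikkn1, a secreted inhibitor of myostatin, had 11, 14 and 18 counts in controls and 5, 0 and 0 in knockouts, too few for a useful fold change (edgeR adjusted p = 0.363). Of 23 tested genes of this list 0 passed by edgeR, 9 were positive and 14 negative, with a median of -0.057, and 2 had an unadjusted p under 0.05.

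Fstl1 encodes a secreted glycoprotein of the follistatin-like group that muscle and connective tissue cells release. Its levels were 64.5, 80.4 and 64.6 CPM in controls 1 to 3 and 104, 95.4 and 86.8 CPM in knockouts 1 to 3. The knockouts lay above the controls with the narrowest spread among the members, a biological coefficient of variation of 13.3%. The fitted log2 fold change was 0.45 (SE 0.12; 95% interval 0.18 to 0.72; edgeR adjusted p = 0.305), with an exact permutation p of 0.1. DESeq2's Wald test gave an adjusted p of 0.0305, and the range over all alternatives was 0.0305 to 0.763. With any 1 library left out, its value stayed between 0.38 and 0.55. Fstl1 (Entrez 14314) lies on chromosome 16, 37777055 to 37836516, with no overlapping gene.

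Igf1 and Fstl1 are also transcribed by cells between the fibres, so markers of these cells are given beside them. Of 10 fibroblast and fibro-adipogenic markers, 9 had a positive log2 fold change and 0 passed by edgeR (3 at an unadjusted p under 0.05). Their summed level was 1522 to 2069 CPM in controls and 2101 to 2422 CPM in knockouts. Of 10 macrophage and leukocyte markers 9 were positive and 0 passed by edgeR (1 at an unadjusted p under 0.05), with overlapping sums of 121 to 206 CPM in controls and 129 to 212 CPM in knockouts. No marker in either list was at 0 counts in all libraries. Over the 6 libraries the mean log2 CPM of the fibroblast list had Pearson's r = 0.908 with Fstl1 (permutation p = 0.0208). Without controls 1 and 3 it was 0.552, and with Igf1 r was 0.665 (permutation p = 0.151). For the macrophage list r was 0.773 with Fstl1 (permutation p = 0.1) and 0.478 with Igf1 (permutation p = 0.349). None passed Benjamini-Hochberg adjustment over 90 relations of members to marker lists (adjusted p = 0.356 for Fstl1 with the fibroblast list). How much of the Igf1 and Fstl1 values these cells account for was not tested. Sparc, a matrix protein that is both in the fibroblast list and in a list of other secreted factors, was at 205 ± 28.4 and 314 ± 27.4 CPM (SD, n = 3 each; 0.61, SE 0.12, edgeR adjusted p = 0.237).

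**Figure D2:**
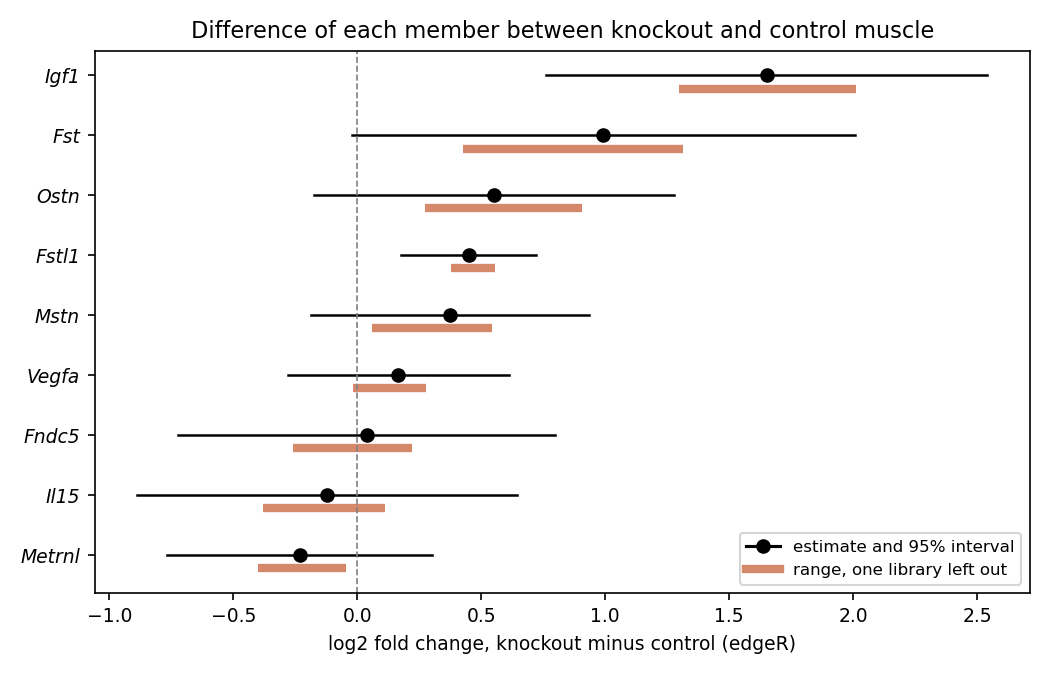
Log2 fold change of each tested member, knockout minus control, as the edgeR estimate (point) with its 95% interval (black line) and the range over fits that each leave out 1 library (orange bar). The intervals of Igf1 (0.76 to 2.54) and Fstl1 (0.18 to 0.72) lie above 0; those of the other 7 include 0, and the orange bars of Vegfa, Fndc5 and Il15 cross it.

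Fndc5 encodes the membrane protein from which irisin is cleaved, a factor linked to exercise and to PGC-1alpha. It stood at 102, 102 and 45.1 CPM in controls 1 to 3 and at 85.5, 62.1 and 108 CPM in knockouts 1 to 3. Control 3 was lowest and knockout 3 highest, and the groups overlapped throughout. Its fitted difference was 0.038 in log2 (SE 0.33, edgeR adjusted p = 0.979), with a 95% interval from a 0.607-fold to a 1.74-fold level, and it turned to -0.26 without control 3 and to -0.17 without knockout 3. In knockouts 1 and 2, where Ppargc1a was highest (422 and 293 CPM), Fndc5 lay below controls 1 and 2. In knockout 3 Ppargc1a (87.7 CPM) was also above every control, and Fndc5 was the highest of all libraries. A relation between Fndc5 and Ppargc1a was not tested. Fndc5 (Entrez 384061) lies on chromosome 4, 129136870 to 129144593.

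The order of the libraries by Fndc5 was close to that by the slow-fibre genes. Against the mean log2 CPM of the 7 slow-fibre markers, Fndc5 had Pearson's r = 0.933 (permutation p = 0.00278, n = 6) and Spearman's rho = 0.943 (permutation p = 0.0167). With control 3 and knockout 2, the libraries farthest from the median, left out, r was 0.922. Fndc5 also ran with the smooth muscle and pericyte list (r = 0.819, permutation p = 0.0333) and the endothelial list (r = 0.806, permutation p = 0.0694). It ran against the adipocyte list (r = -0.873, permutation p = 0.0208). Leaving out the 2 libraries farthest from each list's median gave r = 0.020, 0.903 and -0.187 in that order. Such relations were not particular to Fndc5. Il15 also ran with the slow-fibre list (r = 0.757, permutation p = 0.0472, and r = 0.282 without control 3 and knockout 2). With the endothelial list Il15 had Spearman's rho = 1 (permutation p = 0.00278). The slow-fibre relation of Fndc5 was 1 of 90 relations between members and marker lists. None of the 90 passed after Benjamini-Hochberg adjustment (adjusted p = 0.25 for Fndc5 with the slow-fibre list).

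**Figure D3:**
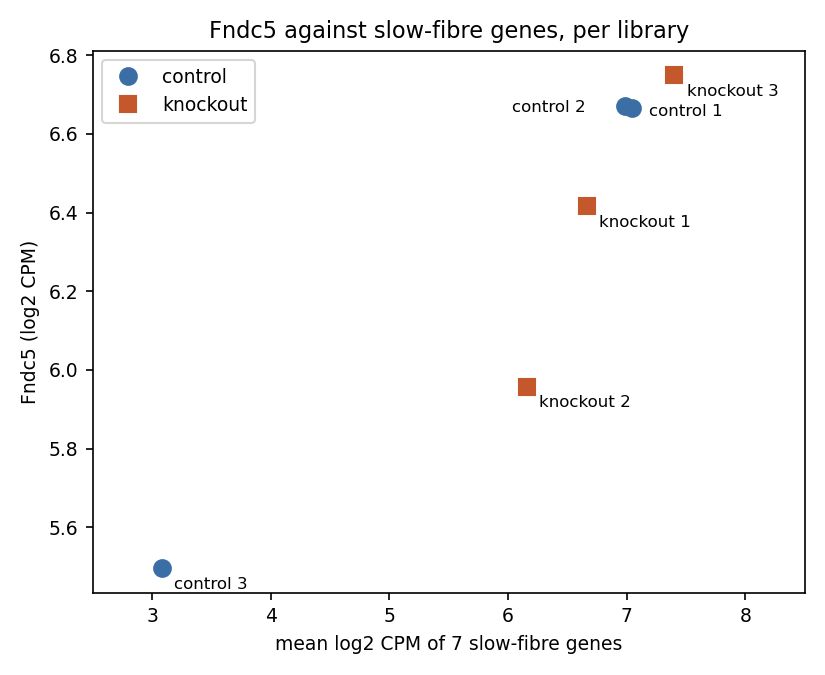
Fndc5 (y axis, log2 CPM) against the mean log2 CPM of 7 slow-fibre genes (x axis) in each control (circle) and knockout (square) library. Control 3 lies far to the left at 3.08 with the lowest Fndc5, and knockout 3 lies at 7.40 with the highest.

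Il15 encodes interleukin-15, a cytokine that supports lymphocytes and acts on muscle. It stood at 5.60, 5.16 and 2.74 CPM in controls 1 to 3 and at 4.74, 2.66 and 4.97 CPM in knockouts 1 to 3. Control 3 and knockout 2 were low, and the rest lay close together. The fitted difference was -0.12 in log2 (SE 0.33, edgeR adjusted p = 0.919; 95% interval from a 0.540-fold to a 1.56-fold level) and changed sign without control 1 (0.062) or knockout 2 (0.11). Il15 (Entrez 16168) lies on chromosome 8, 82331624 to 82403252. Its private receptor chain Il15ra was at 18.6 ± 3.16 and 16.3 ± 1.01 CPM (SD, n = 3 each), within its spread.

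Downstream of the interleukin-15 receptor, Stat5b was the list's gene with the smallest p. Stat5b encodes a transcription factor activated by cytokine and growth hormone receptors. It stood at 321, 302 and 335 CPM in the controls and at 200, 195 and 233 CPM in the knockouts, with no overlap (log2 fold change -0.61, SE 0.097, edgeR adjusted p = 0.145). Without knockout 3, the knockout nearest the controls, its adjusted p was 0.0302 (range over the alternatives 9.54e-06 to 0.654). Il2rg was at 1.64, 1.74 and 1.56 CPM in the controls and 3.64, 3.57 and 2.04 CPM in the knockouts (log2 fold change 0.90, SE 0.26, edgeR adjusted p = 0.325). Of 9 tested genes in this list 0 passed by edgeR, 5 were positive and 4 negative, with a median of 0.070, and 3 had an unadjusted p under 0.05.

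Metrnl encodes meteorin-like, a factor released by muscle after exercise and by fat. It stood at 5.86, 7.35 and 4.43 CPM in controls 1 to 3 and at 5.98, 3.90 and 5.11 CPM in knockouts 1 to 3. The groups overlapped, with control 2 highest and knockout 2 lowest. In log2 the difference was -0.23 (SE 0.23, edgeR adjusted p = 0.730; 95% interval from a 0.588-fold to a 1.23-fold level). It had the smallest p of the members with a negative difference, and the transcripts most like it were Nab2 (r = 0.990), AI467606 (0.986) and Cdh5 (0.986), the last an endothelial cadherin. Metrnl (Entrez 210029) lies on chromosome 11, 121702427 to 121717389. Of 12 tested genes in the list of partners of irisin, meteorin-like and FSTL1, 0 passed by edgeR, 8 were positive and 4 negative, with a median of 0.14 and 2 at an unadjusted p under 0.05, Fstl1 and Ppargc1a. Itgb1, an integrin chain and the non-member next in order, was at 203 and 244 CPM in controls and knockouts (0.27, edgeR adjusted p = 0.432).

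Ostn encodes musclin, also called osteocrin, a small peptide that occupies the clearance receptor of natriuretic peptides. It stood at 11.7, 8.40 and 18.4 CPM in controls 1 to 3 and at 14.7, 25.4 and 16.4 CPM in knockouts 1 to 3. Control 3 and knockout 2 were the highest of their groups, the same libraries in which Il15 was lowest. Fitted in log2, the difference was 0.55 (SE 0.31, edgeR adjusted p = 0.545; 95% interval from a 0.885-fold to a 2.43-fold level), 0.27 without knockout 2 and 0.91 without control 3. Ostn (Entrez 239790) lies on chromosome 16, 27307641 to 27351209, and 2 annotated features on the opposite strand, Gm32312 and the pseudogene Gm15970, overlap it. Npr3, that clearance receptor, was at 6.56, 8.91 and 3.30 CPM in the controls and 4.56, 4.06 and 7.21 CPM in the knockouts, with overlapping groups. Nppc, the C-type natriuretic peptide, had 14, 22 and 25 counts in controls and 6, 10 and 0 in knockouts (edgeR adjusted p = 0.456). Of 8 tested genes of this list 0 passed by edgeR, and 0 had an unadjusted p under 0.05, with 4 positive, 4 negative and a median of -0.075.

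Some pairs of members had similar or opposite orders over the libraries. Ostn and Metrnl ran opposite to each other, with Pearson's r = -0.965 (permutation p = 0.00556, n = 6) and Spearman's rho = -0.943 (permutation p = 0.0167), and r = -0.837 without knockout 2 and control 2. Mstn ran with Ostn (r = 0.898, permutation p = 0.0167; rho = 0.943, permutation p = 0.0167; r = 0.640 without the same libraries). Mstn ran against Il15 (r = -0.833, permutation p = 0.00972; rho = -0.943, permutation p = 0.0167; r = -0.864 without them). Fst ran with Igf1 (r = 0.888, permutation p = 0.00972; rho = 0.943, permutation p = 0.0167), and r was 0.722 without knockout 1 and control 3. Fst also ran with Fstl1 (r = 0.882, permutation p = 0.0139, and r = 0.792 without the same libraries). Fstl1 ran with Igf1 (r = 0.883, permutation p = 0.0333, and r = 0.971 without controls 1 and 3). Il15 ran with Fndc5 (r = 0.928, permutation p = 0.025) and Metrnl (r = 0.847, permutation p = 0.0264). Without control 3 and knockout 2 these were 0.534 and 0.143. Mstn ran against Metrnl (r = -0.864, permutation p = 0.0222). Of 36 pairs of members, these had a Pearson permutation p under 0.05. No pair passed after Benjamini-Hochberg adjustment (smallest adjusted p = 0.117).

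**Figure D4:**
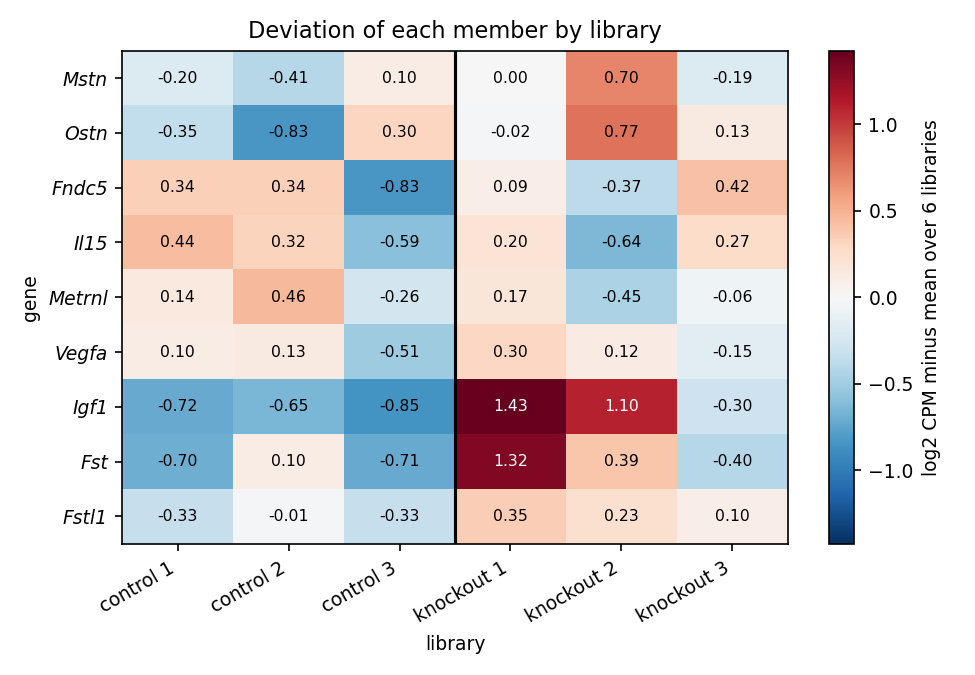
Log2 CPM of each member (rows) in each library (columns) minus its mean over the 6 libraries, with red above and blue below the mean. Mstn and Ostn are highest in knockout 2 (0.70 and 0.77), where Il15 is at -0.64, while Igf1 and Fst are highest in knockout 1 (1.43 and 1.32).

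Vegfa encodes the endothelial growth factor that maintains and extends the capillary bed, and fibres are a main source of it in muscle. It stood at 296, 302 and 194 CPM in controls 1 to 3 and at 340, 300 and 249 CPM in knockouts 1 to 3. Control 3 was the lowest library, and the groups overlapped. Its log2 fold change came to 0.17 (SE 0.19, edgeR adjusted p = 0.774; 95% interval from a 0.824-fold to a 1.53-fold level) and was -0.016 without control 3. Vegfa (Entrez 22339) lies on chromosome 17, 46016993 to 46032377, and the 10 transcripts that the table pools for it cannot be told apart.

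Kdr encodes the main signalling receptor of VEGF-A on endothelium. It stood at 40.8, 43.1 and 18.6 CPM in controls 1 to 3 and at 22.4, 19.4 and 23.4 CPM in knockouts 1 to 3. Controls 1 and 2 were high, and control 3 lay below every knockout. The difference in log2 was -0.65 (SE 0.29, edgeR adjusted p = 0.438). Over 8 endothelial markers, of which Kdr is 1, 2 were positive and 6 negative, 0 passed by edgeR (0 at an unadjusted p under 0.05), and none was at 0 counts in all libraries. They summed to 365 to 474 CPM in controls and 383 to 433 CPM in knockouts, and their part in the Kdr value was not tested. Vegfb, a related ligand, was at 109 ± 16.2 and 108 ± 12.4 CPM (SD, n = 3 each).

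Of 20 tested genes of the VEGF and angiogenic list 0 passed by edgeR, 11 were positive and 9 negative, with a median of 0.042, and 3 had an unadjusted p under 0.05. Vhl, which targets hypoxia-inducible factors for degradation, was at 7.49 ± 0.365 and 5.49 ± 0.708 CPM (SD, n = 3 each; -0.45, SE 0.13, edgeR adjusted p = 0.343). Flt4, a receptor of lymphatic endothelium, was at 9.17 ± 0.926 and 12.0 ± 1.58 CPM (0.39, SE 0.13, edgeR adjusted p = 0.363). Neither gene's groups overlapped, as held for 17.3% of all genes tested. Both were picked for a small p, which favours such a separation, so it is no further support. The same limit holds for Stat5b, Fgfr3, Fgfr4 and Angptl4.

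Fgf21, a hormone that muscle releases under mitochondrial stress, had 0 counts in all 6 libraries. A count of 0 allows up to 3 counts, or between 0.0454 and 0.0598 CPM at these depths, so no difference could be detected. Its coreceptor Klb had 0, 4 and 14 counts in controls and 6, 2 and 0 in knockouts and was not tested. Fgf21 (Entrez 56636) lies on chromosome 7, 45613890 to 45615490. Fgfr1, the receptor that pairs with beta-klotho, was abundant at 157, 152 and 187 CPM in the controls and 147, 146 and 149 CPM in the knockouts. Its knockouts lay just below its controls (-0.16, SE 0.097, edgeR adjusted p = 0.560).

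Fgfr3 and Fgfr4, other receptors of the family, had the smallest p of this list. Fgfr3 stood at 7.22, 8.24 and 7.31 CPM in the controls and at 14.8, 14.6 and 11.8 CPM in the knockouts (log2 fold change 0.85, SE 0.12, edgeR adjusted p = 0.129). Its adjusted p was 0.0226 without knockout 3, the knockout nearest the controls (range over the alternatives 5.53e-06 to 0.536). Fgfr4 averaged 4.01 ± 0.118 CPM over the controls and 2.71 ± 0.373 CPM over the knockouts (SD, n = 3 each), a log2 fold change of -0.57 (SE 0.16, edgeR adjusted p = 0.325). For Fgfr3 every knockout was above the controls, and for Fgfr4 every knockout was below them. Of 13 tested genes in the list of FGF21 signalling and stress inducers 0 passed by edgeR. With a median of -0.16, 5 were positive and 8 negative. There were 5 at an unadjusted p under 0.05, against 11.6% of all genes.

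**Figure D5:**
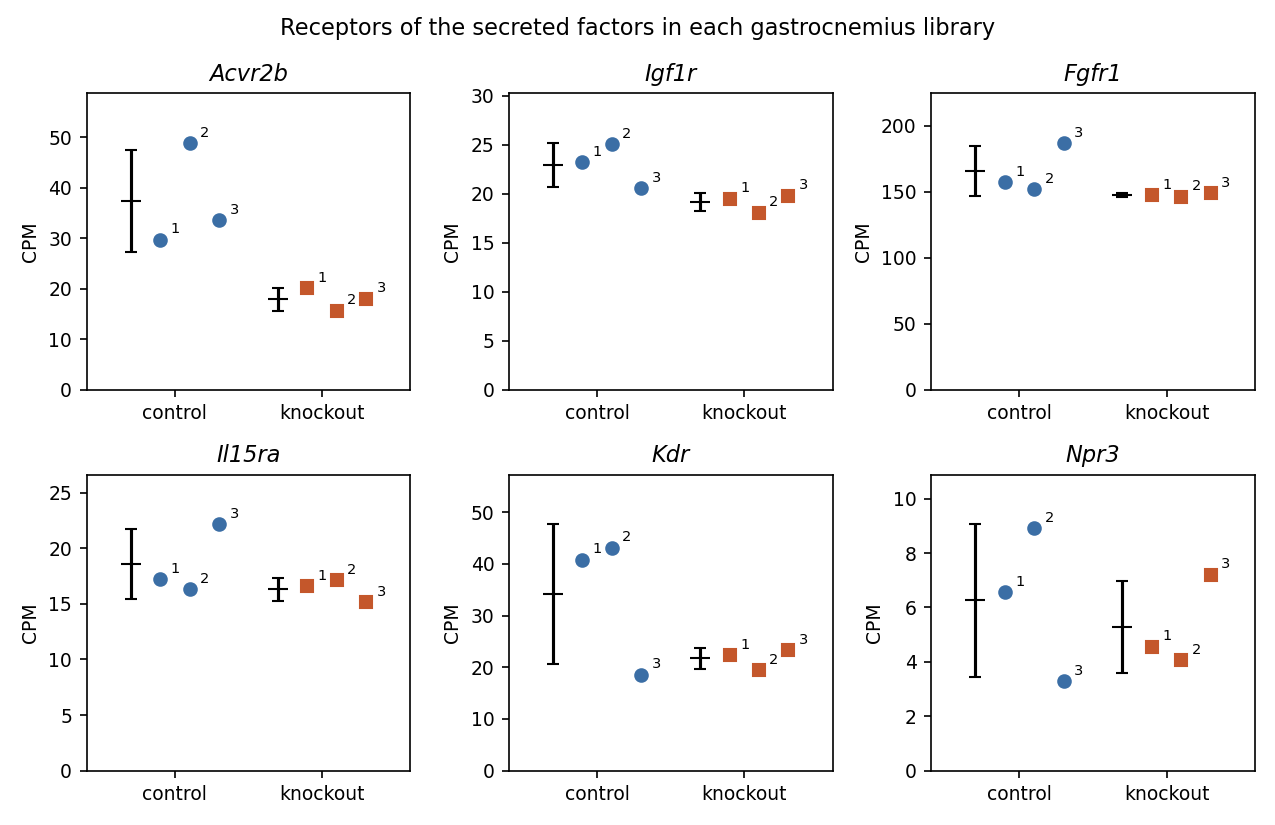
Level of 6 receptors of the secreted factors in CPM (y axis, from 0) in the 3 control (circles) and 3 knockout (squares) libraries, numbered by replicate, with group mean and SD as black bars. All knockout points of Acvr2b lie at or below 20.1 CPM and all control points at or above 29.7 CPM, whereas control 3 of Kdr (18.6 CPM) lies with the knockouts.

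Among other factors that muscle secretes, 24 genes were tested and 0 passed by edgeR, with 16 positive, 8 negative, a median of 0.21 and 6 at an unadjusted p under 0.05. The smallest p belonged to Angptl4, an inhibitor of lipoprotein lipase, at 1.14, 1.44 and 3.07 CPM in the controls and 15.4, 18.1 and 9.55 CPM in the knockouts (log2 fold change 2.92, SE 0.40, edgeR adjusted p = 0.121). Every knockout was above every control. Without knockout 3, the knockout nearest the controls, the adjusted p was 0.0274 (range over the alternatives 3.00e-12 to 0.402). Sparc, described with the fibroblast markers, was next in order.

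Per transcript length, the members spanned a wide range of FPKM, the authors' fragment values scaled to length and depth. Over the 6 libraries Vegfa was most abundant (lowest 57.0, median 85.3, highest 98.4 FPKM), and its range did not meet that of any other member. Fndc5 (median 33.9) and Mstn (31.8) followed and did not differ beyond their spread, each being the higher in 3 of 6 libraries. Fstl1 (median 23.5) was below Mstn and above Ostn (12.0) in all 6 libraries. Il15 (3.72), Igf1 (2.98), Metrnl (2.21) and Fst (1.80) formed a low group whose neighbouring ranges overlapped. Igf1 reached 10.7 and 8.03 FPKM in knockouts 1 and 2, above every library's Il15, whereas in all 3 controls it stayed at or below 2.72 FPKM.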

How the data were processed

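Per the labels' protocols, gastrocnemius RNA was made into 1 stranded mRNA library per sample and sequenced. Read counts per gene were deposited unnormalized, as whole numbers, per the file headers. FPKM and TPM values are also the authors' own, deposited beside the counts; FPKM served for levels between genes and as an alternative, and TPM was not used. The submitters' processing notes name StringTie 1.3.4d, Bowtie2 2.3.4.1, FastQC 0.11.7 and bcl2fastq 2.20.0 with mm10, without roles; whether counting used strand is not given in the sources used here.

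Counts were tested with edgeR 4.0.16 (R 4.3.3): filterByExpr with a minimum count of 10 (14109 genes kept, 10423 not tested), TMM scaling, quasi-likelihood F test, and Benjamini-Hochberg adjustment over all genes with a threshold of 0.05. SEs and 95% intervals, which are not adjusted for multiple tests, came from the F statistic. For log2 CPM in the permutation tests, correlations and list means the prior count was 2. The log2 CPM of members shown in the figures was taken without it. The 95% intervals include the spread between samples, whereas the limit of 3 counts covers counting error only. Chi-square per degree of freedom was 34.9 or more for every pair of libraries, so each counted as 1 sample. Replicates are samples labelled as separate; nothing in the labels ties samples to litters, and p-values thus reflect only how much these samples vary.

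The members, gene lists and named genes were chosen with earlier results of these data known. The text names all members, fixed partners, of each list the non-members past the threshold or else the 2 with the smallest p, and the 3 genes most like the leading member in each direction. Alternatives were other scalings, filters, tests (DESeq2 1.42.0, limma 3.58.1), FPKM with pseudocounts of 1 and 0.1, a replicate term, a threshold of 0.10 and leaving out each library. Positions are those of RefSeq on GRCm38.p6 (mm10). On simulated counts for this comparison (13947 genes), 67, 67 and 66 genes above a low CPM limit were changed 1.5-fold, 2-fold and 4-fold. The test called 17.9%, 77.6% and 97.0% of them in that order, with 9 unchanged genes called. So many changed genes loosen the Benjamini-Hochberg cut-off, whereas the data themselves gave 8 calls. These shares can thus be too high for the data, and a member not called is not shown to be unchanged.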

Additional observations from a re-analysis of the deposited data

How the results depend on the processing

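The count of members called, 0 by edgeR, was 2 with DESeq2's Wald test and lay between 0 and 1 with any 1 library left out (1, Igf1, without knockout 3); it was 0 in the other scalings, filters and tests. Over all genes the count was 8 and became 290 with DESeq2's Wald test, 5 with limma-voom, 1 with FPKM plus 1, 1 with FPKM plus 0.1 and 0 with the replicate block, and without single libraries it ran from 1 to 141, the highest without knockout 3. DESeq2 gave 554 genes no adjusted p. The cause of these differences was not tested. Same-numbered control and knockout samples had correlations of deviations of -0.0082, -0.19 and -0.098, and no sample correlated best with its own number. The main fit therefore did not pair samples by number. Whether any samples share a litter or batch cannot be told from these few small correlations. Log2 fold changes of Igf1, Fst, Fstl1, Mstn, Ostn and Metrnl kept their sign in all 16 alternatives. With single libraries left out, values that changed sign ran from -0.26 to 0.22 for Fndc5, -0.38 to 0.11 for Il15, -0.016 to 0.28 for Vegfa, -0.30 to 0.19 for Gdf11, -0.032 to 0.34 for Fstl3, -0.16 to 0.27 for Igfbp5, -0.12 to 0.084 for Vegfb and -0.55 to 0.096 for Npr3. Vegfb, at -0.0021, was 0.0020 with DESeq2 size factors, 0.00090 with a filter of 1 CPM, 0.0021 with DESeq2's Wald test, 0.0013 with limma-voom and 0.0029 with the replicate block. Igfbp5 was -0.031 with FPKM plus 1 and -0.032 with FPKM plus 0.1. Depth limits Fgf21, Klb, Wfikkn1 and Nppc.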
